A study of Mus musculus with 7 samples.

Results

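Mb macrophages are 1 of 2 macrophage types that the study distinguished in the mouse mammary gland, and they were taken here as the cells that carry the label "Macrophage Mb" in the deposited annotation. They comprised 146 of 13684 cells, 124 of them from young and 22 from aged mice. Dissociated cells of the #4 mammary glands, freed of lymph nodes, were profiled from 3 young (3 to 4 months) and 4 aged (13 to 14 months) virgin females at diestrus, whose genetic background was a mixture of FVB, 129 and C57BL/6J, with no engineered allele or treatment named. The glands were digested with enzymes and red cells were lysed, so cells that do not survive dissociation were lost in both age groups. Adipocytes were discarded with the supernatant. Each mouse gave 1 droplet library of the 3′ ends of mRNA molecules, counted as unique molecular identifiers (UMIs). Young A contributed 90 Mb cells, Young B 16, Young C 18, Aged A 9, Aged B 6, Aged C 4 and Aged D 3.

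Macrophages are phagocytes that take up dying cells and debris, digest them in lysosomes and present peptides to T cells on MHC class II molecules. In the mammary gland they lie in the stroma and along the epithelial ducts, and they take part in duct branching and in the clearance of epithelial cells. Matrix metalloproteinases cleave the extracellular matrix around them, and chemokines and cytokines recruit and instruct other immune cells.

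The type is labelled by 3 genes that few other cells use, together with Cd74, the invariant chain of MHC class II, which every antigen-presenting cell carries. Mmp12 encodes macrophage elastase and Mmp13 a collagenase, and they lie close together on mouse chromosome 9 (GRCm38.p6, RefSeq), at chr9:7344397-7360461 and chr9:7272514-7283333. Spic, at chr10:88675269-88683023, encodes an ETS-family transcription factor known from iron-recycling macrophages of the spleen. The 250 bases before their transcript starts are shown because these genes set the type apart. Capitals mark matches to the AP-1 motif TGANTCA, which is its own reverse complement, and to the ETS motif AGGAAGT, which reads ACTTCCT on the other strand. The windows are chr9:7272264-7272513 (plus strand, Mmp13), chr9:7344147-7344396 and chr9:7347124-7347373 (plus strand, 2 starts of Mmp12) and chr10:88683024-88683273 (minus strand, Spic).

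Mmp13: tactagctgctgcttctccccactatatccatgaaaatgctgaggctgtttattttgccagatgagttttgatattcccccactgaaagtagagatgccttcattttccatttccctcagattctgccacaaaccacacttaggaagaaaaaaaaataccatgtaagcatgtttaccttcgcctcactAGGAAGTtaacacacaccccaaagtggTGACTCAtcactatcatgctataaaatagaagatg

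Mmp12, first start: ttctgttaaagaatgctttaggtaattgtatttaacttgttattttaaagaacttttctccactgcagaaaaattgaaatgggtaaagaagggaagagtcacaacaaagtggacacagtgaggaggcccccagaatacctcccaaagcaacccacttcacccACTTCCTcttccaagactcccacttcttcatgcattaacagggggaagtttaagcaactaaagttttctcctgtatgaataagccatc

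Mmp12, second start: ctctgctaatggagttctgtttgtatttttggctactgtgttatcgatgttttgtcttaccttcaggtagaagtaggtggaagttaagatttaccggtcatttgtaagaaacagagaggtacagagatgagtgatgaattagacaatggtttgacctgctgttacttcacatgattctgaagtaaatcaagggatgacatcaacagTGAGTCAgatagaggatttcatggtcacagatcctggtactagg

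Spic: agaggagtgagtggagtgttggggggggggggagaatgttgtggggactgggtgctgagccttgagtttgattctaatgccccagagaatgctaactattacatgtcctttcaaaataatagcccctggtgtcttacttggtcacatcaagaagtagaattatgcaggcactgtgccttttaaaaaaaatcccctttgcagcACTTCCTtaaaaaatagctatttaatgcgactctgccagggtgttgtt

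The Mmp13 window held both motifs, an AP-1 match 35 bases and an ETS match 62 bases before the start. The 2 starts of Mmp12 held 1 match each, ETS at 88 bases for the first and AP-1 at 44 bases for the second. The Spic window held an ETS match at 48 bases. Of 32851 promoter windows of this length, 6.75% held TGANTCA, 7.69% held AGGAAGT and 0.511% held both. Among the 12 genes that most set Mb macrophages apart (named in the following account), 8 had a window, 4 of these genes (Mmp12, Mmp13, Il1a and Cd207) had an AP-1 match and 3 (Mmp12, Mmp13 and Spic) an ETS match. The counts are of genes, some with several windows (Mmp12 and Acp5), and a match in any window counted. The percentages are of single windows, so the 2 are not on the same footing. These are matches of letters, and binding was not measured.

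The 7 libraries held 6652599 to 16999625 UMIs, and the Mb cells of a mouse 24393 (Aged D) to 519375 (Young A). Mb cells had a median of 5343 UMIs, the fourth highest of 13 cell types. Levels are given as CPM, the counts summed over the Mb cells of a mouse and scaled by its UMI total. Across 859 genes, log2 CPM of Young A correlated less with Young B (Pearson r = 0.860) and Young C (r = 0.863) than these did with each other (r = 0.902), and aged mice correlated with each other at r = 0.707 to 0.832. These r are descriptions across genes, which are not independent, and aged sums rest on fewer cells. Cell barcodes were written as 2 runs of 8 bases in all 3 young mice and as 1 run of 16 bases in all 4 aged mice. The tables of the age groups were thus handled differently, and this cannot be told apart from age. Libraries shared 101 barcodes, which 202 cells carried, 1 of them an Mb cell.

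The labelling genes were highest in Mb macrophages. Because the authors' clusters came from these same counts, levels against other cell types are descriptions without a test. Mmp12 measured 431, 1042 and 442 CPM in Young A, B and C (639 ± 349.7, SD, n = 3 mice), and 1022, 968, 309.8 and 2009 CPM in Aged A to D. The highest other type in young mice was dendritic cells with 40.5 CPM, 15.8-fold lower. Without Young C, which had the highest level in dendritic cells, the ratio was 54.9, and without Young B it was 7.19.

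Mmp13 measured 159.8, 599 and 205 CPM in the young mice (321 ± 242) and 524, 334, 658 and 369 CPM in the aged mice. In the next type, myoepithelial cells, 2 UMIs gave 1.40 CPM, a ratio of 230.1 with a 95% counting interval of 63.7 to 1899.9. Spic measured 36.6, 299.7 and 194 CPM in the young mice (177 ± 132) and 105, 167, 503 and 205 CPM in the aged mice. Dendritic cells came next with 3 UMIs (ratio 83.8, counting interval 28.7 to 407). The Spic ratio was 136 without Young A, 36.5 without Young B and 8.21 over all 7 mice, and the Mmp13 ratio was 87.1 without Young B. Young A was the lowest young mouse for all 3 genes, and young and aged mice overlapped for each.

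Cd74 was abundant in Mb macrophages but not restricted to them. Its level was 84921, 86221 and 66932 CPM in the young mice (79358 ± 10781) and 45066, 58967, 72256 and 56533 CPM in the aged mice. Young dendritic cells reached 37541 ± 4598 CPM and Ma macrophages 10173 ± 2122 CPM (n = 3), 2.11-fold and 7.80-fold lower. The 3 young values of Mb cells lay above all those of both other types.

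**Figure D1:**
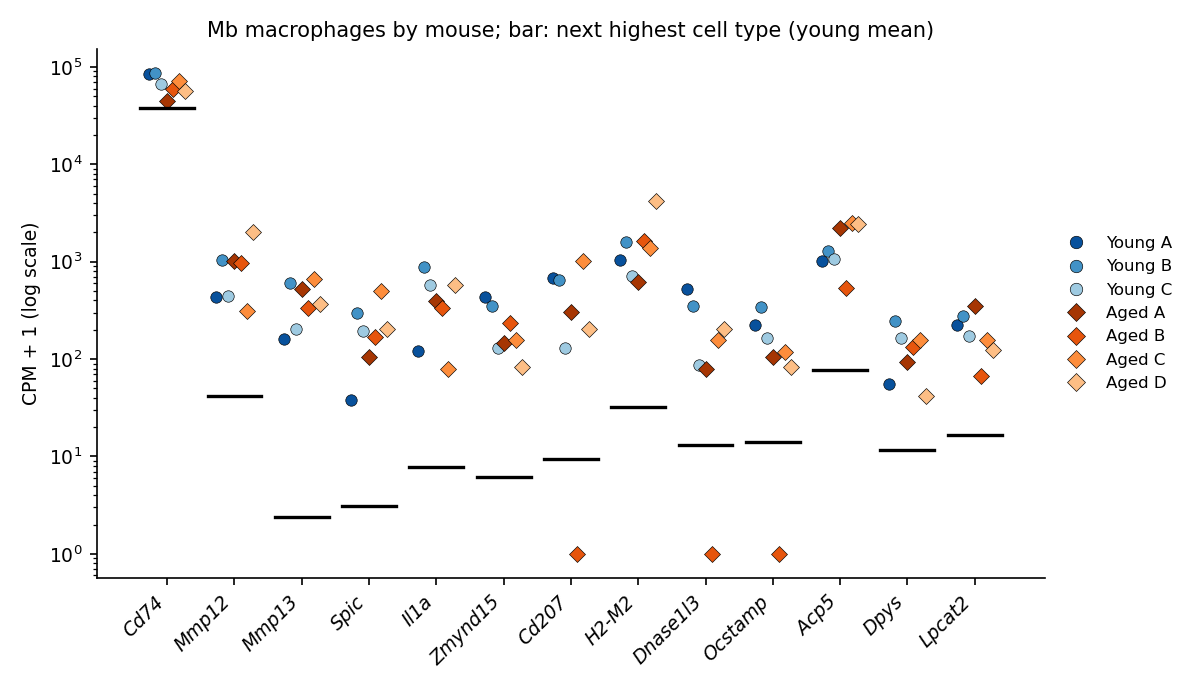
Levels of the 4 labelling genes and the other leading genes in Mb macrophages, as CPM plus 1 on a log axis, 1 point per mouse (circles young, diamonds aged); the black bar is the mean of the next highest cell type in young mice. Points of Mmp12, Mmp13 and Spic lie above their bars in all 7 mice.

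Of 1066 genes with at least 100 CPM in young Mb macrophages, 220 were higher there than in each of the 12 other cell types, 89 at least 2-fold and 15 at least 10-fold. The 12 with the largest ratio were Mmp13, Spic, Il1a, Zmynd15, Cd207, H2-M2, Dnase1l3, Ocstamp, Mmp12, Acp5, Dpys and Lpcat2. The ranking kept 11 of these genes without Young A, 10 without Young B and 11 without Young C.

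Il1a, the cytokine interleukin 1 alpha, measured 121, 873 and 583 CPM in the young mice, 77.2-fold above Ma macrophages (34.5-fold without Young B). Cd207, which encodes the lectin langerin of Langerhans cells, measured 685, 652 and 129 CPM, 57.7-fold above dendritic cells (32.1-fold without Young B and 248.8-fold without Young C). H2-M2, a class I-like MHC gene, measured 1030.1, 1589.7 and 712 CPM, while Ma macrophages had 1.69 and dendritic cells 3.93 CPM. Its next type rested on 2 UMIs of lymphatic endothelial cells, so the ratio of 35.4 had a counting interval of 9.81 to 293, and it was 253 without Young A. Young C was the lowest young mouse for Cd207 and H2-M2, and Young A for Il1a.

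Dnase1l3, a secreted DNase that degrades DNA of dying cells, measured 528, 352 and 86.3 CPM (26.8-fold above dendritic cells). Zmynd15, a zinc finger gene, measured 433, 352 and 129 CPM (59.6-fold). Dpys, an enzyme of pyrimidine breakdown, measured 154 ± 97.0 CPM (14.6-fold) and Lpcat2, an enzyme of phospholipid remodeling, 224 ± 50.5 CPM, 14.2-fold above myoepithelial cells. Without Young B the ratio of Dpys was 6.82, and that of Zmynd15 was 35.6 without Young A and 97.4 without Young C.

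Among cell fusion and osteoclast genes, those of phosphatase and fusion proteins were high and those of matrix-degrading proteases were not. Of 11 listed genes, 3 had at least 100 CPM and the same 3 were highest in Mb macrophages. Acp5, tartrate-resistant acid phosphatase, measured 1019, 1290.0 and 1068 CPM in the young mice, against 13.3 CPM in Ma macrophages and 48.2 CPM in dendritic cells. Dcstamp and Ocstamp, membrane proteins that osteoclasts and giant cells need to fuse, measured 358 ± 46.2 CPM and 221, 339 and 162 CPM, 7.26-fold and 18.6-fold above dendritic cells. Mmp9 had no UMI in any Mb cell, and Ctsk, the collagen-degrading cathepsin of osteoclasts, had 0.642 CPM. Of the 11 genes, 3 had no UMI in the Mb cells of any mouse.

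Antigen presentation on MHC class II was the largest group by level. Its 10 listed genes summed to 126443 CPM in young Mb macrophages, 71099 CPM in dendritic cells and 18542 CPM in Ma macrophages, with all 10 above Ma and 5 above dendritic cells. H2-Ab1 measured 17130.2 ± 2128 CPM, H2-Aa 15271 ± 1218 CPM and H2-Eb1 12686 ± 1572 CPM in young mice, 1.34-fold to 1.54-fold above dendritic cells.

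Lysosomal proteases and hydrolases were broadly high, 21 of 23 genes at 100 CPM or more, 15 highest in Mb macrophages, 17 above Ma and 21 above dendritic cells. Ctss, a cathepsin that trims the invariant chain, measured 4043, 4508 and 4229 CPM in the young mice, against 541 ± 29.2 CPM in Ma macrophages and 573 ± 102 CPM in dendritic cells. Ctsz followed with 1906 ± 364 CPM (3.16-fold above Ma) and Psap, the precursor of the saposins that help degrade sphingolipids, with 2972 ± 486 CPM (1.82-fold above dendritic cells). Ctsb was an exception at 2115 ± 857 CPM, against 2536 ± 535 CPM in Ma macrophages, a difference within the spread.

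Of 14 metalloproteinases and inhibitors 4 had at least 100 CPM, Mmp12, Timp2, Mmp13 and Mmp14. The membrane-bound Mmp14 measured 112 ± 28.8 CPM, against 136 CPM in fibroblasts and 15.9 CPM in Ma macrophages. Timp2, an inhibitor of the family, was lower in Mb (351 ± 97.5 CPM) than in Ma macrophages (998 ± 195 CPM) and fibroblasts (2558 CPM).

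Cytokine genes were high in Mb macrophages, 8 of 15 at their highest there. Il1b measured 4627, 3375 and 3042 CPM in the young mice, 3.10-fold above dendritic cells and 103-fold above Ma macrophages. Its antagonist Il1rn measured 406 ± 193 CPM (4.87-fold above dendritic cells). The anti-inflammatory cytokine Il10 measured 300.4, 391 and 485 CPM, against 27.6 ± 10.7 CPM in Ma macrophages. Tnf measured 181, 1589.7 and 766 CPM in Young A, B and C, and its spread reached the 309 ± 255 CPM of Ma macrophages. Within each mouse it was higher in Mb cells, as Ma macrophages had 60.7, 570 and 296 CPM. Both pro-inflammatory and anti-inflammatory members of the list were therefore among the higher genes.

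Chemokines divided between the macrophage types, 8 of 17 above Ma and 5 highest in Mb macrophages. The neutrophil attractant Cxcl2 measured 8827 ± 2933 CPM in young Mb and 4508 ± 1082 CPM in Ma macrophages. Ccl4 (8097 ± 5950.3 against 6364 ± 5403 CPM) and Ccl3 (3247 ± 2812 against 1104 ± 1148 CPM) differed by less than their spread between mice. Within each young mouse, both were higher in Mb than in Ma macrophages. Ccl6 at 83.1 CPM, Ccl8 at 1.28 CPM and Pf4 at 52.8 CPM were far below Ma macrophages, which had 2796, 1133 and 2089 CPM. Of 7 chemokine receptors 3 were highest in Mb macrophages, led by the decoy-type receptor Ccrl2 (863 ± 352 CPM, 2.50-fold above Ma).

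Sensors of microbes and signaling adaptors were also prominent. Of 11 measured pattern recognition genes 6 were highest in Mb macrophages, among them Cd14, the lipopolysaccharide co-receptor, with 2357, 3297 and 4564 CPM in the young mice, 5.44-fold above alveolar luminal cells. Tlr2, a receptor for bacterial lipoproteins, measured 514 ± 119 CPM (6.51-fold above Ma) and the inflammasome sensor Nlrp3 208 ± 58.4 CPM (2.17-fold). Among 9 Fc receptor and adaptor genes 5 were highest, with Tyrobp at 2908 ± 603 CPM and Aif1 at 1248 ± 128 CPM.

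What the type lacked was the scavenger and lectin program of resident macrophages. None of 19 listed genes reached 100 CPM in young Mb cells, none was above Ma macrophages, and 6 had no UMI in the Mb cells of any mouse. The list summed to 269 CPM in Mb against 31168 CPM in Ma macrophages. Mrc1, the mannose receptor, measured 3.85, 0 and 10.8 CPM, against 574 ± 59.1 CPM in Ma. Retnla measured 23.9 CPM against 20859 CPM, and Cd163, the hemoglobin scavenger receptor, had no UMI in any Mb cell, and 0 of 124 young cells allows up to 2.42% of cells with a UMI (3 counts of the total), which sets no limit on cells that express the gene.

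General macrophage genes were shared. C1qa, C1qb and C1qc of the complement initiator C1q measured 4991 ± 1542, 4784 ± 731 and 3392 ± 721 CPM, 1.08-fold to 1.22-fold above Ma macrophages and 28.5-fold to 59.5-fold above dendritic cells. Apoe measured 26137 ± 8497 CPM, against 19354 ± 1175 CPM in Ma and 289 CPM in dendritic cells. Csf1r, the growth factor receptor of macrophages, was lower in Mb (262 ± 65.2 CPM) than in Ma (576 ± 81.9 CPM), and so was Lyz2, lysozyme (2731 ± 1371 against 6602 ± 878 CPM). Adgre1, which encodes the F4/80 antigen, measured 142 ± 10.1 against 212 ± 72.8 CPM. Ms4a7 was higher in Mb (696 ± 338 CPM) than in Ma (213 ± 19.3 CPM) and nearly absent from dendritic cells (1.50 CPM).

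Itgax, which encodes CD11c, measured 156, 65.2 and 64.7 CPM, against 1.69 CPM in Ma macrophages and 30.4 ± 18.5 CPM in dendritic cells. Itgam, which encodes CD11b, had 1.28 CPM, against 65.8 ± 10.8 CPM in Ma and 49.1 ± 12.5 CPM in dendritic cells. Vcam1, an adhesion molecule for leukocytes, measured 377, 1082 and 356 CPM, 5.89-fold above pericytes. The chemokine receptor Cx3cr1 was low, at 58.5 ± 52.2 CPM, but its mean was above that of Ma macrophages (6.20 ± 7.97 CPM) and dendritic cells (4.83 ± 4.58 CPM). Duct-associated macrophages are usually described as CD11c-positive and CD11b-low, and position in the gland was not measured in dissociated cells.

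**Figure D2:**
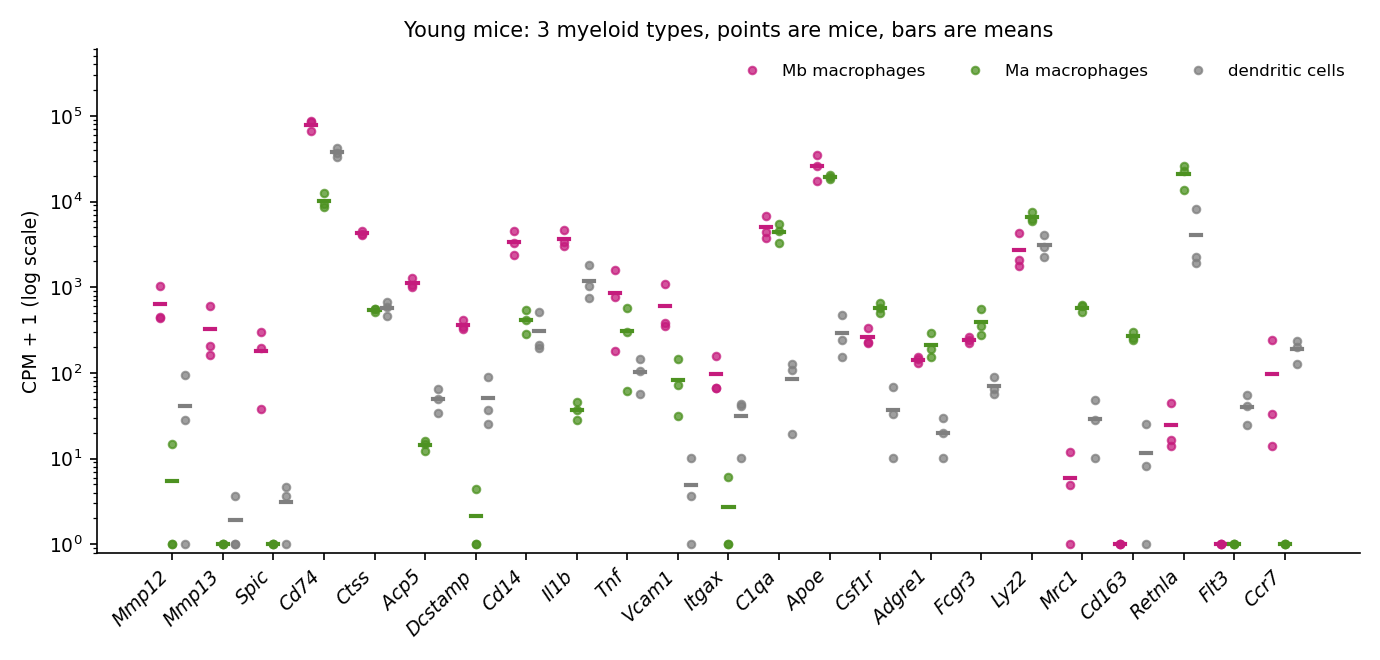
Levels of 23 genes in Mb macrophages, Ma macrophages and dendritic cells of the 3 young mice, as CPM plus 1 on a log axis; points are mice and short bars their means. Mmp12, Mmp13, Spic, Ctss and Acp5 were highest in Mb cells, C1qa and Apoe were shared with Ma cells, and Mrc1, Cd163 and Retnla were lower in Mb cells than in Ma cells in all 3 mice.

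The survival genes Bcl2a1b (2787 ± 543 CPM, 7.81-fold above T and B cells) and Bcl2a1a (1027 ± 122 CPM, 4.41-fold above dendritic cells) were highest in Mb macrophages, but paralogs of this family share reads and their split is uncertain. Of 12 ligands and receptors that act on T cells 7 were highest in Mb macrophages, with Cd83 at 1119.7 ± 363 CPM and the co-stimulator Cd86 at 293 ± 83.7 CPM. The iron storage gene Fth1 measured 20948 ± 1485 CPM, 1.88-fold above lymphatic endothelial cells, and 4 of 10 heme and iron genes were highest in Mb macrophages. Spi1, the master factor of myeloid cells, measured 437 ± 28.2 CPM, 1.97-fold above Ma macrophages, whereas Maf measured 22.0 ± 12.8 CPM, against 343 ± 70.9 CPM in Ma.

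No member of 3 lists was highest in Mb macrophages, namely 15 interferon-stimulated, 19 immediate early and heat-shock and 17 cell-cycle genes. The immediate early genes, which dissociation of tissue is known to induce, were lower than in Ma macrophages for all 19 members. Fos measured 911 ± 253 CPM in Mb, 3285 ± 703 CPM in Ma and 7482 CPM in alveolar luminal cells of young mice.

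Markers of other cells were low with exceptions. The 13 epithelial markers, all detected, summed to 1115, 3401 and 3344 CPM in Young A to C and 1061, 701, 813 and 656 CPM in Aged A to D, against 28257 CPM in alveolar luminal cells. The 7 dendritic cell markers summed to 64.7 to 337 CPM in young and 123 to 194 CPM in aged mice, against 1147 CPM in dendritic cells, with Flt3 and Cd209a at 0. The 6 Ma markers summed to 9.63 to 21.6 CPM in young and 0 to 38.7 CPM in aged mice, against 5364 CPM in Ma, with Cd163 and Lyve1 at 0. Markers of T cells, B cells and NK cells summed to at most 13.1 CPM in any mouse. Fibroblast markers summed to 354, 78.2 and 669 CPM in the young mice, 13.1 CPM in Aged A and 0 in the other 3 aged mice.

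Not every Mb cell carried each labelling gene. Among 124 young cells, with a median of 5112 UMIs, Mmp12 was detected in 77 (62.1%, 95% Wilson interval 53.3 to 70.2%), Mmp13 in 48 (38.7%, 30.6 to 47.5%) and Spic in 26 (21.0%, 14.7 to 29.0%). Young alveolar luminal cells, with a median of 5424.5 UMIs, had a UMI of these genes in 0.252%, 0% and 0.378% of 794 cells. The shares in Mb cells lay far above this background. Cd74 was detected in all 124 young cells, but also in 21.3% of alveolar cells. When each cell was thinned to 2000 UMIs, the shares were 41.9%, 21.8% and 12.1% for Mmp12, Mmp13 and Spic, so depth limits detection of all 3. Intervals cover counting error only.

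The 3 genes met in some cells and not in others. Of the 124 young cells, 27 had none of Mmp12, Mmp13 and Spic, 52 had 1 of them, 36 had 2 and 9 had all 3. Mmp12 and Mmp13 were found together in 32 cells. Of the 22 aged cells, 2 had none, 4 had 1, 13 had 2 and 3 had all 3. At their median of 6490 UMIs, aged cells had Mmp12 in 17, Mmp13 in 12 and Spic in 10. After thinning, these were 10, 8 and 4 of 22 cells.

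Young A, which supplied most Mb cells, stood apart in named genes that were chosen after the values were seen. Cfp, which encodes the complement factor properdin, measured 599 CPM there and was found in 83 of 90 cells, against 39.1 CPM (2 of 16 cells) in Young B and 32.4 CPM (3 of 18) in Young C. Il12b measured 483, 52.1 and 10.8 CPM in Young A, B and C, and Ccr7, the receptor that guides cells to lymph nodes, 241, 13.0 and 32.4 CPM. Napsa, a dendritic cell marker, was detected in 59 of 90 cells of Young A, 4 of 16 of Young B and none of 18 of Young C.

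Other genes were low in Young A alone. Trem2, a lipid-sensing receptor, measured 3.85 CPM there, against 104 and 313 CPM in Young B and C. Gdf15, a stress-induced cytokine, measured 44.3 CPM, against 508 and 529 CPM. Of 1411 genes compared with a floor of 3 counts, 7 were at least 5-fold higher and 27 at least 5-fold lower in Young A than in both other young mice. Among aged mice, Il12b measured 668 CPM in Aged A, 328 CPM in Aged D and 0 in Aged B and Aged C. Cfp measured 91.7 and 82.0 CPM in Aged A and Aged D and 0 in the other 2, and Ccr7 197 CPM in Aged A and 38.7 CPM in Aged C. Of the 4 cell-cycle genes of highest level, Stmn1, Birc5 and Top2a were highest in Young A among young mice. Stmn1 measured 318, 26.1 and 10.8 CPM in Young A, B and C, and Birc5 75.1, 0 and 0 CPM. Top2a was found in 13 of 90 cells of Young A and in no cell of Young B or C. Pcna alone was lowest in Young A (42.4 CPM, against 78.2 and 64.7 CPM).

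The Mb share of all cells was lower in every aged mouse than in every young mouse, and the Mb share of macrophages was higher. Mb cells made up 4.01, 1.27 and 0.628% of all cells in Young A, B and C and 0.546, 0.218, 0.292 and 0.194% in Aged A to D. The lowest young and the highest aged mouse lay close together, and their Wilson intervals overlapped (0.398 to 0.991% and 0.288 to 1.03%). Means were 1.97 ± 1.80% and 0.313 ± 0.161% (exact two-sided permutation test, p = 0.0286, the smallest that 35 divisions of 3 and 4 mice allow; adjusted p = 0.0714 over 5 denominators).

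Among the macrophages of both types, Mb cells were 69.2, 44.4 and 22.8% in the young mice and 90, 100, 100 and 100% in the aged mice (45.5 ± 23.2% against 97.5 ± 5.0%; exact permutation p = 0.0286, adjusted p = 0.0714). Only 1 Ma macrophage was found in the aged mice, against 121 in the young mice, while the aged total of Mb cells was 22. Neither share passed an adjusted p of 0.05.

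Against other denominators the age groups overlapped. Of myeloid cells (dendritic cells and both macrophage types), Mb cells were 43.9, 26.7 and 9.73% in young and 37.5, 54.5, 80 and 75% in aged mice (exact permutation p = 0.0857, adjusted p = 0.143). Of immune cells they were 24.1 ± 16.4% and 26.7 ± 9.77% (exact permutation p = 0.829). Of stromal cells, which here include the immune cells, they were 3.42 ± 2.92% and 1.65 ± 0.635% (exact permutation p = 0.286). Young A had the highest and Young C the lowest young share for all 5 denominators. A captured share depends on which other cells survived dissociation, and this was not tested.

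**Figure D3:**
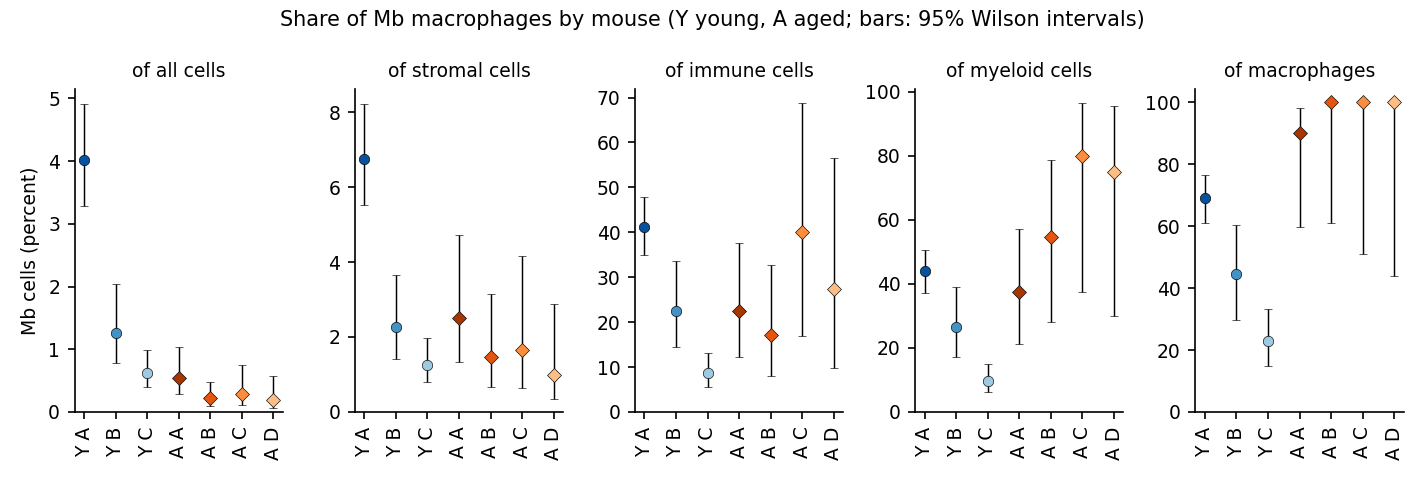
Share of Mb macrophages in each of 7 mice (percent) of all cells, stromal cells, immune cells, myeloid cells and macrophages; error bars are 95% Wilson intervals of the counts. Aged mice lie below young mice for all cells and above them for macrophages, and the groups overlap in the other 3 panels.

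The median depth of Mb cells was 5362.5, 4617 and 4616.5 UMIs in the young and 7992, 4843, 6307 and 8631 UMIs in the aged mice. Genes per cell were alike in mean (1355 and 1360 genes, exact permutation p = 1) and the mitochondrial share was 3.06 ± 0.439% in young and 2.07 ± 0.463% in aged mice (exact permutation p = 0.0857, adjusted p = 0.171). For UMIs the exact permutation p was 0.114 (adjusted p = 0.171).

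Expression in Mb macrophages was compared between ages on counts summed per mouse, with edgeR's quasi-likelihood test over 859 genes. Values in this comparison are CPM after TMM scaling, whose factors ran from 0.815 in Aged D to 1.21 in Young A. Calls required 1.5-fold or more and p below 0.05 after Benjamini-Hochberg adjustment. Of the genes tested 10 (1.16%) were called, 8 (0.931%) higher and 2 (0.233%) lower in aged mice, and 180 had an unadjusted p under 0.05. The groups did not overlap for 150 genes (17.5%). The median log2 fold change was -0.02.

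Of the 4 labelling genes none was called. Their log2 fold changes were 1.07 for Mmp12 (SE 0.580, edgeR adjusted p = 0.337), 0.87 for Mmp13 (SE 0.513, edgeR adjusted p = 0.368), 0.78 for Spic (SE 0.825, edgeR adjusted p = 0.631) and -0.14 for Cd74 (SE 0.272, edgeR adjusted p = 0.839). None had an unadjusted p under 0.05, and DESeq2 called none. An aged mouse gave only 3 to 9 cells, and a miss of the threshold does not show equal levels.

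The called gene with the lowest p was H2-Eb1, the beta chain of the class II molecule I-E (chr17:34305867-34316674, GRCm38.p6). It measured 14771, 12090.4 and 13849 scaled CPM in the young and 283, 273, 519 and 467 scaled CPM in the aged mice. All young mice were above all aged mice, and the log2 fold change was -5.18 (SE 0.296, edgeR adjusted p = 1.499e-05). The neighbouring class II genes did not follow, with H2-Aa at 0.45 (edgeR adjusted p = 0.284) and H2-Ab1 at -0.06 (edgeR adjusted p = 0.938). Alveolar luminal cells of young mice had 19.3 CPM of H2-Eb1. The summed epithelial markers of Mb cells were also lower in aged mice, and their part in the difference was not tested.

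Hmox1, heme oxygenase 1, which degrades heme and is induced by oxidative stress (chr8:75093618-75100593), measured 24.0, 85.1 and 212 scaled CPM in the young and 2043, 1732, 1090.4 and 1928 scaled CPM in the aged mice. The groups did not overlap (log2 fold change 4.15, SE 0.677, edgeR adjusted p = 0.0382). It was detected in 22 of 124 young and 17 of 22 aged cells, and after thinning in 11 and 15. In alveolar luminal cells the share also differed, 15.2% in young and 27.5% in aged mice.

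The chemokine Ccl5, which attracts T cells (chr11:83525778-83530518), measured 81.8, 624 and 470.3 scaled CPM in young and 3102, 7429, 3115 and 6834 scaled CPM in aged mice. All aged mice were higher (log2 fold change 3.76, SE 0.697, edgeR adjusted p = 0.0408). Ccl5 was found in 24 of 124 young and 17 of 22 aged cells. T cells and NK cells also transcribe Ccl5, and the T cell and NK cell markers each summed to 13.1 CPM in Aged A and 0 in Aged B, C and D.

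Cxcl2 measured 6294, 12970.2 and 9264 scaled CPM in young and 22444, 52732, 50159 and 75645 scaled CPM in aged mice, without overlap (log2 fold change 2.40, SE 0.437, edgeR adjusted p = 0.0405). Clec4d, a C-type lectin of myeloid cells, measured 45.9, 71.0 and 58.8 scaled CPM in young and 432, 182, 935 and 876 scaled CPM in aged mice (log2 fold change 3.38, SE 0.597, edgeR adjusted p = 0.0382). In both genes the lowest aged mouse was above the highest young mouse, Aged A for Cxcl2 and Aged B for Clec4d.

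Prdx1, an antioxidant peroxiredoxin, measured 1098, 1178 and 1952 scaled CPM in young and 7516, 2689, 9398 and 9463 scaled CPM in aged mice (log2 fold change 2.37, SE 0.448, edgeR adjusted p = 0.0417). Gstm1, a glutathione transferase, rose by 2.88 on the log2 scale (SE 0.506, edgeR adjusted p = 0.0382) and Kpna4, a nuclear import receptor, by 3.02 (SE 0.526, edgeR adjusted p = 0.0382). Aged B was the lowest aged mouse for Prdx1 and Gstm1.

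The remaining calls were gene models that share sequence with ribosomal protein genes. Gm10260 rose from 0 to 14.2 scaled CPM in young to 1038 to 1686 scaled CPM in aged mice (log2 fold change 8.33, edgeR adjusted p = 6.758e-05) and Gm10036 fell by 3.51 on the log2 scale (edgeR adjusted p = 0.0417). Of their 50-base words, 56.6% are found in Rps18 for Gm10260 and 66.4% in Rpl11 for Gm10036, so the origin of their reads is uncertain.

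The calls rested on few mice. Clec4d, Kpna4, Gstm1 and Gm10260 were low in every young mouse and passed the filter on low counts only through aged mice. They could therefore only come out higher. Hmox1 and Ccl5 also needed aged mice to pass. Before TMM scaling, Hmox1 measured 23.1, 78.2 and 194 CPM in Young A, B and C, and Ccl5 78.9 CPM in Young A. H2-Eb1 and Gm10260 alone stayed called under all 15 alternatives tried. Without Young B, Aged C or Aged D edgeR called 2 genes each, without Young C 3, without Young A 5, without Aged A 6 and without Aged B 9. Among mice with at least 5 Mb cells, which leaves out Aged C and Aged D, Hmox1 kept a log2 fold change of 4.32 at an edgeR adjusted p of 0.242, and Ccl5 3.82 at an edgeR adjusted p of 0.250.

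Other genes of interest to the study in aged Mb macrophages were not called by edgeR. Gdf15 measured 45.9, 553 and 576 scaled CPM in young and 4369, 6426, 3531 and 6133 scaled CPM in aged mice, without overlap (log2 fold change 3.77, SE 0.758, edgeR adjusted p = 0.0533). Cd274, which encodes PD-L1, an inhibitory ligand for T cells, measured 20.0, 56.8 and 70.5 scaled CPM in young and 254, 137, 415 and 643 scaled CPM in aged mice (log2 fold change 3.09, SE 0.656, edgeR adjusted p = 0.0658). Both missed the threshold while every aged mouse was above every young mouse. DESeq2 called both (adjusted p = 6.313e-05 and 0.001574), and over all alternatives Gdf15 was called in 5 of 15 and Cd274 in 4 of the 10 that tested it.

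Of the receptor genes Lilr4b and Lilrb4a, the first measured 53.9, 511 and 364 scaled CPM in young and 835, 1276, 1246 and 1869 scaled CPM in aged mice (log2 fold change 2.13, edgeR adjusted p = 0.140). It was called under 2 of 15 alternatives. The second had a log2 fold change of 0.73 (edgeR adjusted p = 0.431) with overlapping groups. The 2 are near-identical paralogs, and reads could be split between them.

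**Figure D4:**
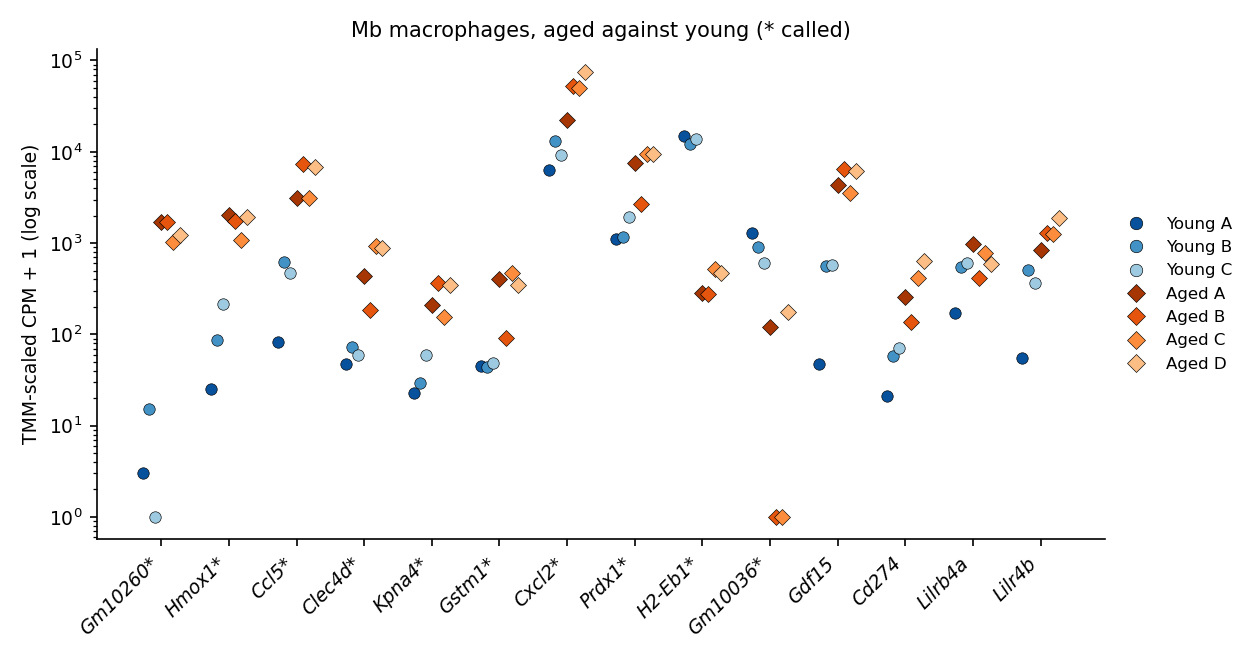
TMM-scaled CPM plus 1 on a log axis for 14 genes in the Mb macrophages of each mouse (circles young, diamonds aged); asterisks mark the 10 genes called by edgeR. The age groups separate for every gene but Lilrb4a.

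Over the 22 gene lists, 137 members were tested by age and 5 were called (3.65%, against 1.16% of all genes tested), 4 higher and 1 lower, with a median log2 fold change of 0.53. The lists were chosen with earlier results known, so this is a count and not a test. The filter on low counts kept a gene that reached its minimum in as few mice as the smaller age group held. Members low in all young mice, Cd274 and Clec4d among them, thus entered only through aged mice and could only come out higher.

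All 10 chemokines tested had higher means in aged mice, with a median log2 fold change of 2.35 and 2 calls, Ccl5 and Cxcl2. The members that were not called spread widely between mice. Ccl4 measured 1783, 14701 and 9887 scaled CPM in young and 18999, 103048, 39982 and 103041 scaled CPM in aged mice (log2 fold change 2.92, edgeR adjusted p = 0.122). Ccl3 had a log2 fold change of 2.91 (edgeR adjusted p = 0.140) and Cxcl10 4.64 (edgeR adjusted p = 0.0858). Aged B and Aged D held the highest levels of Ccl3 and Ccl4 and Young A the lowest.

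The interferon-stimulated genes had the largest list median, 2.85, but edgeR called none of 7, and 3 had lower means in aged mice. An unadjusted p under 0.05 was found for 6 of them, and DESeq2 called 4 (Isg15, Oasl1, Ifit1 and Ly6e). Over all 859 genes tested, 180 had an unadjusted p under 0.05 and DESeq2 called 45. The counts of this and the following lists are to be read beside these. Ifit1 had a log2 fold change of 4.68 (edgeR adjusted p = 0.141) and Ly6e one of -2.20 (edgeR adjusted p = 0.111). Of 16 immediate early and heat-shock genes 13 had higher means in aged mice (median 1.20), of which edgeR called none and DESeq2 1, with 5 at an unadjusted p under 0.05. NF-kB factors and feedback targets had 5 of 6 higher means (median 1.42), with 0 calls by edgeR, 1 by DESeq2 and 4 at an unadjusted p under 0.05. Of 12 ligands and receptors that act on T cells, 5 passed the filter on low counts, Cd274 only through aged mice. All 5 had higher means in aged mice (median 1.24). EdgeR called 0 of them and DESeq2 1, and 2 had an unadjusted p under 0.05.

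Identity groups gave medians nearer to 0. MHC class II genes had 1 higher and 5 lower means (median -0.27), with H2-Eb1 called. Of 21 lysosomal genes 11 were higher and 10 lower (median 0.08), and of 4 metalloproteinases and inhibitors 3 were higher (median 0.45). EdgeR called none of either group, DESeq2 called 1 lysosomal gene (Lipa), and 2 lysosomal genes and 0 metalloproteinases and inhibitors had an unadjusted p under 0.05. Heme and iron genes had 5 of 6 higher means (median 0.84), with Hmox1 called. Pattern recognition genes had 2 of 5 higher means (median -0.13), with Clec4d called. None of the remaining lists held an edgeR call, and 0 to 3 members of each had an unadjusted p under 0.05. DESeq2 called Gdf15, Ccrl2, C5ar1 and Fabp5 among them. No member of the resident scavenger and cell-cycle lists passed the filter on low counts.

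**Figure D5:**
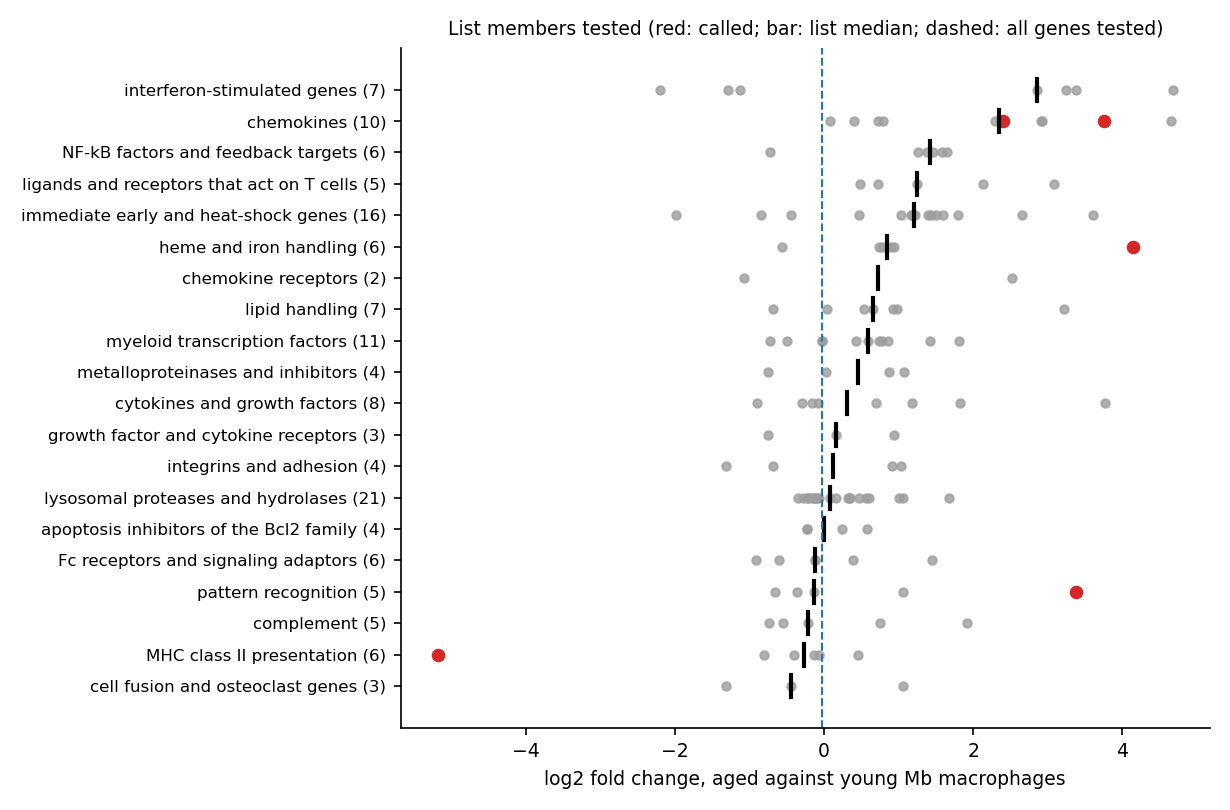
Log2 fold changes, aged against young Mb macrophages, of the tested members of 20 gene lists (number tested in brackets); red points are called, black bars are list medians and the dashed line is the median of all genes tested. Chemokines and interferon-stimulated genes lie farthest to the right, and single calls are scattered over other lists.

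The aged mice differed from each other in the same genes. Lyz2 measured 21251 and 26741 scaled CPM in Aged A and Aged C, but 1231 and 1928 scaled CPM in Aged B and Aged D. Apoe followed with 70091 and 90919.9 against 29716 and 22314 scaled CPM. Tnf showed the reverse, with 552 and 831 scaled CPM in Aged A and C against 5515 and 5958 scaled CPM in Aged B and D. None of these was called by age (edgeR adjusted p = 0.249, 0.337 and 0.323).

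The same fit in other cell types of these mice gives the setting of each call. Gm10260 was called in 8 of 8 other types tested (log2 fold changes 8.26 to 10.03), Gm10036 in 7 of 8 and H2-Eb1 in 5 of 6 (-5.88 to -1.89), always in the direction seen in Mb cells. Hmox1 was called in 5 of 7 types (1.12 to 4.21) and Cxcl2 in 4 of 7 (0.23 to 6.32). Ccl5 was called in 0 of 7 (highest 2.71), Prdx1 in 0 of 8 (-1.05 to 1.25), Gstm1 in 1 of 6 and Kpna4 in 1 of 7. Differences of these changes between cell types were not tested, and the libraries are the same, so the types are no independent replicates.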

How the data were processed

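The authors aligned 10× 3′ v2 reads to mm10 with Cell Ranger 2.0 and deposited a matrix of raw UMI counts. Cells outside the authors' limits on UMIs, genes and mitochondrial UMIs had been removed. A deposited table gives UMI and gene counts, the mitochondrial fraction, Seurat S and G2M score, phase, mouse and cell type of each cell, and these cell types were used. Fold changes or p-values of the authors were not used.

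Within a mouse, counts were added up over the cells of a type where it had 3 or more. For age, the sums of Mb cells of all 7 mice went through filterByExpr and TMM scaling into edgeR 4.0.16 (quasi-likelihood test, R 4.3.3), with genes called at a Benjamini-Hochberg adjusted p of 0.05 and 1.5-fold. The fit was tested on simulated data. Shares and depth were compared with exact permutation tests over mice (scipy 1.17.1). P-values measure the spread between these mice. Levels by cell type are descriptions of young mice.

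Named were the labelling genes, the 12 genes of at least 100 CPM with the largest ratio to the next cell type, up to 4 members of highest level per list, genes the study names for age, and the called genes. In Young A, genes were named after their values were seen. The members, lists and tests were chosen with earlier results of these data known. Clec7a was not in the matrix. Scrublet in scanpy 1.11.5, at an expected rate of 0.06, called 80 of 13684 cells (0.585%) and 1 of 146 Mb cells doublets, which were kept, and the study's limits on genes had been set against doublets. Alternatives were DESeq2 1.42.0, RLE factors, no filter, at least 5 cells, no ribosomal protein and mitochondrial genes, thinned counts, no doublets, a replicate block and each mouse left out. Promoters and positions are from RefSeq on GRCm38.p6, the assembly named mm10, matched by symbol.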

Additional observations from a re-analysis of the deposited data

Results flagged for a closer look

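Among 112 values examined in the 4 aged mice, 9 had 1 mouse far from the other 3 (Dixon's ratio above 0.829), and chance flags about 5% of groups. Mb cells were 90% of macrophages in Aged A and 100% in the other aged mice, where 1 Ma cell made the difference. Aged B was low in Acp5 (534 CPM, others 2214 to 2478) and in Cxcl1 (868 CPM, others 6157 to 6776). Aged B was high in Tlr2 (534 CPM, others 164 to 194), in the complement receptor C5ar1 (1603 CPM, others 445 to 615) and in the lectin Mgl2 (33.4 CPM, others 0). Aged A was low in H2-Aa (14725 CPM, others 17546 to 17730.1), and high in Ly6e (301 CPM, others 38.7 to 66.8) and in Top2a (13.1 CPM, others 0). The Mb sums of Aged A and Aged B held 9 and 6 cells, and the part of cell number in these gaps was not tested.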

How the results depend on the processing

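The number of genes called by age depended on the fit. Against 10 genes by edgeR, DESeq2 called 45 and edgeR without a filter on low counts 71, while mice with at least 5 Mb cells gave 2 and leaving out each mouse gave 2 to 9. RLE factors and the removal of doublets gave 10 each, removal of ribosomal protein and mitochondrial genes 15 and thinned counts 7. Among list members, DESeq2 called 23 and the fit without a filter 29, against 5. H2-Eb1 and Gm10260 were called under all 15 alternatives, and no named change turned its direction. Where the filter on low counts was used, genes that passed it only through aged mice, Gm10260 among them, could only come out higher. The adjusted p of Hmox1 ranged from 1.504e-08 to 0.2424 and that of Ccl5 from 2.992e-09 to 0.2498. All alternatives for shares and depth kept their side of the threshold. With a mouse left out, too few divisions remain for an exact permutation p under 0.05. Those settings could not cross the threshold and say nothing about stability. The direction turned for 2 of the share and depth measures, with a mouse left out. The aged minus young difference in the Mb share of immune cells ranged from -5.18 to 11.2 percentage points (-5.18 without Young C and -1.84 without Aged C, against 2.58). That of median genes per cell ranged from -125 to 120.3 (-40.1 without Young B, -27.6 without Young C, -125 without Aged A and -14.8 without Aged D, against 4.62).

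The letters A to C stand for different animals in each age group. Their deviations correlated at 0.37 (A), 0.09 (B) and -0.05 (C). Without a reference for such values, they cannot decide whether mice with the same letter share a batch, and the labels do not say. A fit with the letter as a replicate block called 35 genes, against 10 without it.

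The Mmp12 ratio to the next type was 36.6 over all 7 mice and 7.19 to 54.9 when a young mouse was left out, and that of Spic was 8.21 over all 7 mice. Detection after thinning was 41.9% for Mmp12, 21.8% for Mmp13 and 12.1% for Spic. The Il1a ratio could not be given without Young C, as the other types were then at 0. An aged mouse gave 3 to 9 Mb cells, which limits the precision of every comparison by age.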
